A study of Mus musculus with 8 samples.

Results

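Neat1 is a long noncoding RNA that stays in the nucleus, and its cDNAs were followed here along the whole transcript in SRSF3 iCLIP tracks of mouse neonatal cardiomyocytes. The gene was taken as the minus strand of chromosome 19 from 5824501 to 5846000 (mm9, 21500 nt). Within it, 5842001 to 5846000 (4000 nt) counted as the part shared by the short and the long form, and 5824501 to 5842000 (17500 nt) as the part that only the long form has. The tracks list single nucleotides with the number of cDNAs that ended there, and Neat1 held 1442 of the 769652 positions of replicate 1, 3177 of the 2093525 of replicate 2 and 4594 of the 3846902 of the merged track. The gene was chosen by its high cDNA level in these same replicates, so its level and the contrast of its parts are given as a description, without a test.

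The measured samples were cardiomyocytes of newborn C57BL/6 mice (P0-1) that had received SRSF3-GFP as a modified mRNA (modRNA), 2 replicates, irradiated with UV light 48 h after transfection. SRSF3 is a small SR protein, a family that binds RNA and acts in splicing and in export of mRNA, and iCLIP reads where reverse transcription stopped next to a crosslinked protein. The bound protein was thus a tagged SRSF3 made from added RNA, and no library without the tagged protein was used to set a background. The 6 heart samples of the series (SRSF3flox/flox;alphaMHC-CreERT2 knockout and alphaMHC-CreERT2 control) are not analysed here. The headers of both tracks carry the same library identifier and the same replicate field. Nothing in the labels says that the replicates were separate cultures. Tests and SDs between them thus measure only the spread between these tracks, which may be technical.

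Neat1 is transcribed from 1 promoter into 2 RNAs that share their start. The short form ends at an early polyadenylation site, and the long form reads through that site and ends in a triple-helical structure in place of a poly(A) tail. The long form is the scaffold of paraspeckles, nuclear bodies that hold proteins such as NONO, SFPQ and PSPC1, while the short form alone does not build them. A cDNA in the shared part can come from either form, and the tracks do not tell which.

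Replicate 1 held 815414 cDNAs in all and replicate 2 held 2253688, so levels are given per 1000000 cDNAs of the library (CPM) and densities as CPM per kb. At these depths a count of 0 still allows 3.68 CPM in replicate 1 and 1.33 CPM in replicate 2. Intervals and exact p-values cover counting error only. The cDNA level follows the amount of the RNA as well as its binding, and the tracks do not separate them, nor do they separate fewer cells that express Neat1 from less Neat1 in each cell. No gene models of mm9 were used here, so the labelled cell type was not checked against its markers.

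The extent of the signal could be set against the known lengths of the transcripts. In the merged track the dense run of minus-strand positions began at 5845481, on the start side of the RNA, and ended at 5824751, a span of 20731 nt. Outside it, 8 isolated positions lay up to 5845832 and 2 lay down to 5824533. The longest Neat1 transcript in GENCODE M21 spans 20771 nt on GRCm38 and the RefSeq gene 20773 nt, so the covered span and the annotated lengths were nearly equal. Only lengths were compared, since the builds differ.

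The shared part was covered about 5 times as densely as the long-form part, in both replicates. Replicate 1 had 944 cDNAs in the shared part and 812 in the long-form part. Replicate 2 had 2513 cDNAs in the shared part and 2168 in the long-form part. Each library thus had slightly more cDNAs in the shorter part.

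Per kb, the shared part held 236 cDNAs and the long-form part 46.4 in replicate 1. In replicate 2 the shared part held 628 cDNAs per kb and the long-form part 124. Scaled to the libraries, this was 284 ± 7.54 CPM per kb in the shared part and 55.9 ± 1.37 in the long-form part (SD, n = 2). The ratio of the densities was 5.09 in replicate 1 (95% interval 4.63 to 5.59) and 5.07 in replicate 2 (4.79 to 5.37), and these intervals overlap almost entirely. The shared part makes up 18.6% of the length of the gene and held 53.8% of its cDNAs in replicate 1 (Wilson 95% interval 51.4% to 56.1%) and 53.7% in replicate 2 (52.3% to 55.1%).

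**Figure D1:**
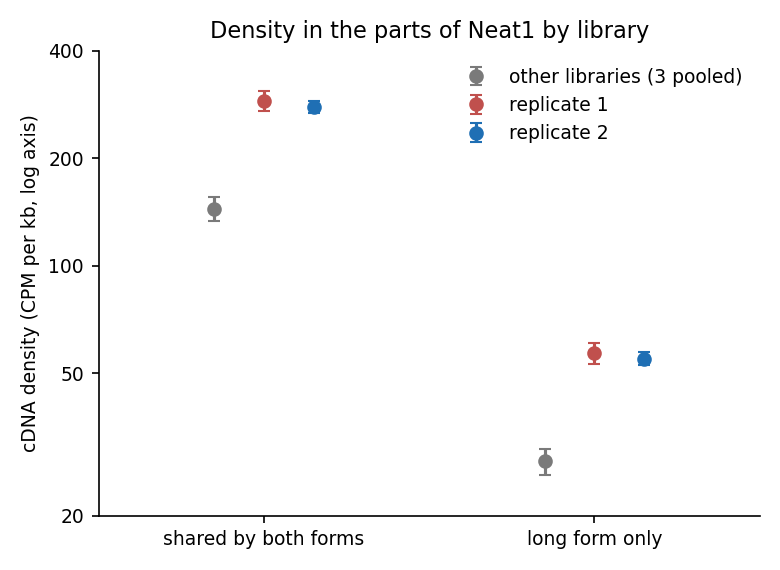
cDNA density in CPM per kb (log axis) in the part shared by both forms and in the part of the long form only, for the other libraries of the merged track and for replicates 1 and 2, with exact 95% Poisson intervals. In both replicates and in the other libraries summed together, the shared part lies about 5 times above the long-form part. Both parts of the summed other libraries lie at about 0.51 times the level of the replicates.

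Within the shared part the signal was concentrated in the middle. The densest 500 nt, from 5844001 to 5844500, held 677 and 565 CPM per kb in replicates 1 and 2, and the neighbouring 500 nt on the start side held 537 and 546. Closer to the start the density was lower, with 169 and 177 CPM per kb in replicates 1 and 2 from 5845001 to 5845500. The outermost 500 nt of the shared part, beyond the edge of the dense run, held only 4 and 3 cDNAs. They still count in the length of the part.

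Toward the long form the density was lower, though not evenly so. From 5843501 to 5844000 it was 365 and 377 CPM per kb in replicates 1 and 2, and over the next 500 nt 199 and 186. From 5842501 to 5843000 it was 201 and 255 CPM per kb, no lower than in the stretch before, and from 5842001 to 5842500 it was 157 and 121. The 1 kb from 5842001 to 5843000 held 183 ± 6.11 CPM per kb (SD, n = 2), and the first 1 kb of the long-form part, from 5841001 to 5842000, held 67.4 ± 1.81. The lowest 1 kb of the shared part, at its start side, had 89.8 ± 0.389 CPM per kb, while its highest, 5844001 to 5845000, had 581 ± 36.4.

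The drop between the parts did not lie exactly on the border of the rule. A single step between constant densities, placed within 1 kb on either side of the border so that the likelihood was highest, fell at 5842214 in replicate 1 and at 5842253 in replicate 2. The density on the start side of the step was 3.56 times that on the end side in replicate 1 and 3.74 times in replicate 2. In the 3 other libraries of the merged track, described further on, the step fell at 5842372 and was smaller, 2.21 times. Counted from the start edge of the dense run, the steps lay at 3268 nt in replicate 1, 3229 nt in replicate 2 and 3110 nt in the other libraries. The shorter Neat1 transcripts in GENCODE M21 span 3170, 2698 and 1579 nt, and the steps lay nearest to the first of these. The search stayed within 1 kb of the border, so a step near 1579 nt could not have been found. Only lengths were compared, so which transcript a step belongs to was not tested. Between the border and the step of the merged track replicates 1 and 2 had 40.9 and 49.9 CPM per kb, close to that of the long-form part.

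**Figure D2:**
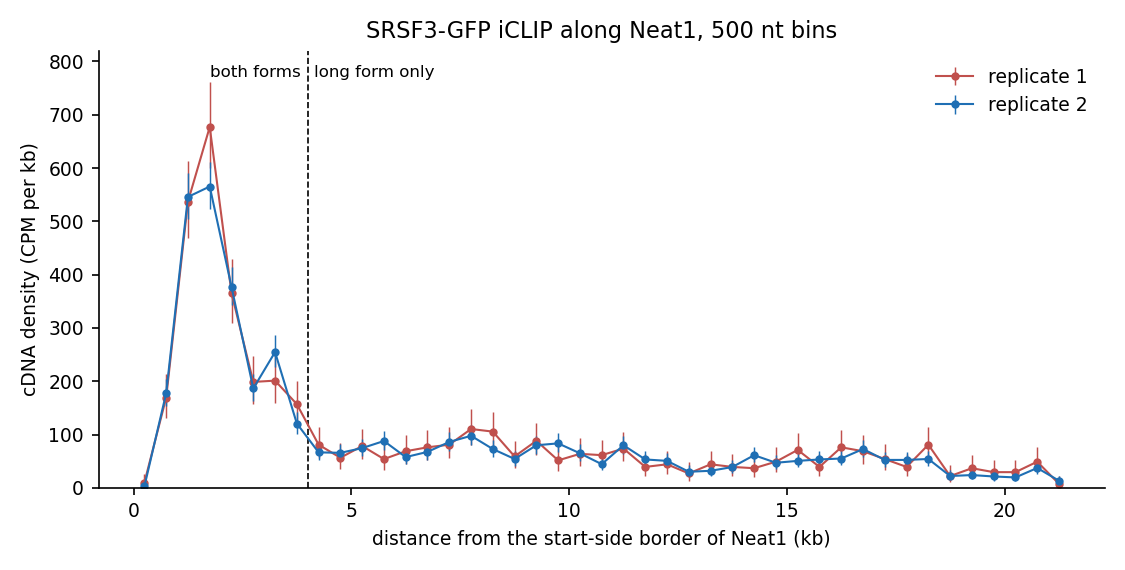
cDNA density in CPM per kb over 500 nt bins of Neat1, from the start-side border of the gene on the left to its end on the right, for replicates 1 and 2 with exact 95% Poisson intervals. Both replicates peak at 537 to 677 CPM per kb in the shared part, left of the dashed border, and stay at or under 110.4 CPM per kb in the long-form part.

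The long-form part was covered along its whole length, at a density that was lower toward its end. In replicate 1 the 8750 nt next to the shared part held 68.8 CPM per kb and the 8750 nt at the end of the RNA held 45.0. In replicate 2 these stretches held 68.7 and 41.2 CPM per kb. The ratio of these stretches was 1.53 in replicate 1 (95% interval 1.33 to 1.77) and 1.67 in replicate 2 (1.53 to 1.82).

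Among whole 1 kb bins of the long-form part the highest, from 5838001 to 5839000, had 93.8 ± 2.69 CPM per kb (SD, n = 2). The lowest, from 5826001 to 5827000, had 27.9 ± 7.41 CPM per kb (SD, n = 2). The highest bin of the long-form part thus stood slightly above the lowest bin of the shared part, which includes the nearly empty 500 nt beyond the start edge. The longest stretch of the dense run without any cDNA in the merged track was 100 nt, from 5834200 to 5834299, and 8 stretches of at least 50 nt were empty. Whether reads can be placed uniquely there was not tested.

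cDNAs in the long-form part were spread over many positions. In replicate 1 its 812 cDNAs lay on 755 positions, 6.62% of them with more than 1 cDNA, and the most at a position was 4. In replicate 2 its 2168 cDNAs lay on 1860 positions, 12.9% of them with more than 1, and the most was 5. Repeated hits on the same nucleotide were thus few in the long-form part.

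In the shared part positions were hit repeatedly. Replicate 1 had 687 positions there, 24.6% of them with more than 1 cDNA, and replicate 2 had 1317, 42.1% of them with more than 1. The share of nucleotides covered was 17.2% in replicate 1 and 32.9% in replicate 2, against 4.31% and 10.6% in the long-form part. Repeated hits are more frequent where the density is higher, so these shares carry the density of each part and the depth of each library with them.

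The 10 strongest positions of the gene, ranked by the lower of the scaled replicate values, all lay in the shared part between 5843941 and 5844713, within 773 nt. The first was 5844712, which had 5 cDNAs in replicate 1 and 20 in replicate 2. Position 5844697 had 6 and 12 cDNAs in replicates 1 and 2, and 5844297 had 4 and 12. Position 5844239 had 8 cDNAs in replicate 1 and 11 in replicate 2, and 5844053 had 5 and 10.

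Even the strongest of these was a small fraction of the gene. The 10 positions together held 2.85% of the Neat1 cDNAs in replicate 1 and 2.22% in replicate 2. Of the 10, 4 lay within the 30 nt from 5844697 to 5844726, the stretch of that length with the most cDNAs in the merged track, about 770 nt from the start edge. These 30 nt held 40 cDNAs of replicate 1, 4.24% of its shared part, and 121 of replicate 2, 4.81%. Every nucleotide of this stretch was covered in the merged track. This stretch was picked after its values were seen.

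The replicates were compared position by position. In the shared part 60.0% of the positions of replicate 1 were also listed in replicate 2 (412 of 687, Wilson 95% interval 56.3% to 63.6%), which covered 32.9% of the nucleotides there. In the long-form part 20.7% were found again (156 of 755, 17.9% to 23.7%), and replicate 2 covered 10.6% of the nucleotides. In both parts the share found again was thus above the share of nucleotides covered.

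Recurrence was higher for positions with more cDNAs in the shared part. There, 53.7% of the replicate 1 positions with 1 cDNA were found again, 73.2% of those with 2 and 91.2% of those with 3 or more (52 of 57, Wilson 95% interval 81.1% to 96.2%). In the long-form part 19.6% of the positions with 1 cDNA and 36.4% of those with 2 (16 of 44, 23.8% to 51.1%) were found again. Only 6 positions there had 3 or more cDNAs, of which 2 were found again. Replicate 2 is the deeper library, and in the other direction the shares were lower. In the shared part 21.3% of its positions with 1 cDNA, 35.8% with 2 and 54.3% with 3 or more were found in replicate 1. In the long-form part these shares were 7.72%, 10.1% and 23.1%. Dense coverage alone raises such shares, and whether it accounts for the trend was not tested.

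At the scale of 100 nt the replicates followed each other closely in the shared part. Across its 40 bins, log2(cDNAs + 1) correlated between the replicates with r = 0.945 (Pearson) and rho = 0.934 (Spearman). Bins from 5845501 on, beyond the start edge of the dense run, held at most 2 cDNAs in replicate 1 and 1 in replicate 2. How far these nearly empty bins raise the correlation was not tested. Across the 175 bins of the long-form part r was 0.610 and rho 0.549, where the median bin held 4 cDNAs in replicate 1 and 12 in replicate 2. These are correlations across neighbouring bins of 1 RNA, which are not independent, and bins share their sequence and how well reads can be placed there.

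**Figure D3:**
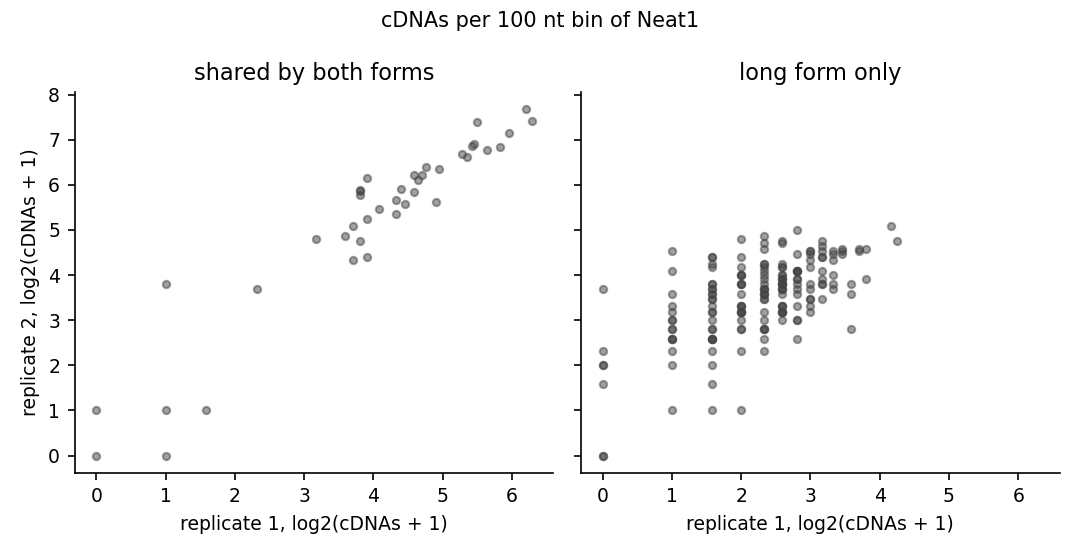
cDNAs per 100 nt bin of Neat1 in replicate 1 (horizontal) and replicate 2 (vertical), both as log2(cDNAs + 1), with 40 bins of the shared part on the left and 175 of the long-form part on the right. Bins of the shared part range up to 77 cDNAs in replicate 1 and 203 in replicate 2, those of the long-form part up to 18 and 33.

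The signal was bounded on both sides and lay on a single strand. On the opposite strand of the 21500 nt, replicate 1 had 3 cDNAs and replicate 2 had 3, against 1756 and 4681 on the strand of Neat1. Replicates 1 and 2 had 1.23 and 1.38 CPM per kb on the minus strand in the 10 kb before the start. Between Malat1 and Neat1 it held 2.17 and 1.44 CPM per kb. The long-form part was 46.4 and 40.0 times as dense as the stretch before the start, and 26.3 and 38.1 times as dense as the stretch after the end. The first 1 kb after the end, with 7.36 and 4.44 CPM per kb, stood above the rest of that stretch.

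Whether Neat1 differed between the replicates was asked with all 10 kb windows of the genome that had at least 50 cDNAs. Each window's split of cDNAs was set against the split of the library totals with a two-sided exact binomial test, and windows were called at a Benjamini-Hochberg adjusted p under 0.05. None of the 3 windows that hold Neat1 was called, where 0.0934% of the 13920 windows were. At an unadjusted p under 0.05, 775 of the 13920 windows and 1 of the 3 Neat1 windows passed. The window from 5840001 had 1295 CPM in replicate 1 and 1267 CPM in replicate 2, a log2 ratio of 0.03 (95% interval -0.07 to 0.13, adjusted p = 1 by the exact binomial test). The window from 5830001 had 614 CPM in replicate 1 and 603 CPM in replicate 2, a log2 ratio of 0.03 (-0.12 to 0.18).

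The window from 5820001, which reaches beyond the end of the gene, had 267 CPM in replicate 1 and 225 CPM in replicate 2. Its log2 ratio was 0.25 (0.02 to 0.48, adjusted p = 0.818 by the exact binomial test). With 1 kb windows, none of the 21 Neat1 windows tested differed, against 0.735% of the 2721 windows of the genome. When each position was counted once instead of its cDNAs, the window from 5840001 passed, with a log2 ratio of 0.43 (adjusted p = 1.7e-08 by the exact binomial test). In the shared part replicate 1 had 1.37 cDNAs per position and the deeper replicate 2 had 1.91. Whether depth accounts for the difference in positions was not tested.

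The balance between the parts was then compared between libraries, in a family of 6 tests. The log2 odds ratio of the shared part, replicate 1 over replicate 2, was 0.00 (95% interval -0.16 to 0.17, p = 0.978, adjusted p = 0.978 over the 6 tests, two-sided Fisher's exact test). Differences of up to 0.17 on this scale lie within that interval. With each position counted once the log2 odds ratio was 0.36 (p = 9.25e-05, two-sided Fisher's exact test). Whether the unequal depth of the replicates accounts for this was not tested. The profile over 1 kb bins differed between the replicates by no more than counting error, with a chi-square of 0.966 per degree of freedom (p = 0.501, adjusted p = 0.752, 20 degrees of freedom).

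The merged track also sums 3 other libraries, whose cDNAs are the merged value less both replicates, 1138453 in all. In them Neat1 stood at 0.512 times its level in the replicates, with the same balance of its parts. Neat1 had 1074 CPM in the other libraries and 2097 CPM in the replicates together, a log2 ratio of -0.97 (95% interval -1.05 to -0.88), and of -0.54 with each position counted once. The shared part had 144 CPM per kb in the other libraries and 282 in the replicates together, and the long-form part had 28.4 and 55.5.

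The parts were lower by almost equal amounts, with log2 ratios of -0.96 (95% interval -1.09 to -0.84) in the shared part and -0.97 (-1.10 to -0.84) in the long-form part. The shared part took 53.8% of the Neat1 cDNAs of the other libraries (Wilson 95% interval 51.0% to 56.6%) and 53.7% of those of the replicates (52.5% to 54.9%). The log2 odds ratio was 0.01 (-0.17 to 0.19, p = 0.975, adjusted p = 0.978, two-sided Fisher's exact test), and 0.56 with positions counted once (p = 2.22e-08 by the same exact test). The 1 kb profile had a chi-square of 1.41 per degree of freedom (p = 0.104, adjusted p = 0.208). Beyond their identifiers, the file headers and labels do not say in what the 3 libraries differ from the replicates.

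**Figure D4:**
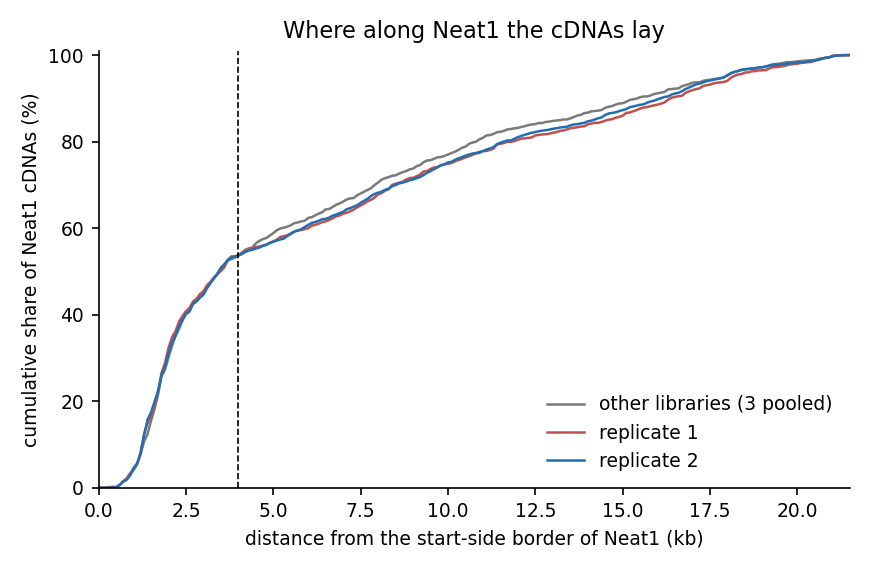
Cumulative share of the Neat1 cDNAs in percent, from the start-side border of the gene on the left to its end 21.5 kb away, for the other libraries of the merged track and for replicates 1 and 2. At the dashed border between the parts the curves stand at 53.8%, 53.8% and 53.7%.

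Since Neat1 was chosen by its level in the replicates, its lower level in the other libraries is a description, with no test, and intervals cover counting error only. By the rule used between the replicates, 13.4% of 21841 windows of 10 kb were called lower in the other libraries. Calls of the Neat1 windows are not set against this share, because the gene was chosen for a high level in the replicates. The window from 5840001 had 673 CPM in the other libraries and 1275 CPM in the replicates, a log2 ratio of -0.92. The windows from 5830001 and 5820001 had log2 ratios of -0.97 and -1.20. At 1 kb, 29.6% of 4562 windows were called lower. The log2 ratios of the 21 Neat1 windows of 1 kb ran from -1.53 to -0.29.

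Most windows as strong as those of Neat1 were lower as well. When windows of 10 kb were ranked by the lower of their replicate values, 90 of the first 100, which include 2 of Neat1, were lower in the other libraries, with a median log2 ratio of -0.87 and quartiles of -1.13 and -0.54. These windows, like Neat1, were chosen for a high value in the replicates. Whether that choice accounts for the lower values was not tested. Among the first 100 windows of 1 kb, 80 were lower, with a median log2 ratio of -0.76. The median log2 ratio was -0.09 over all 21841 windows of 10 kb and -0.53 over all 4562 of 1 kb.

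Malat1, another abundant nuclear noncoding RNA, is the neighbour of Neat1 on the same strand and was the only gene set beside it. It was taken as the run of 1 kb windows with at least 100 CPM in both replicates, from 5796001 to 5803000. Malat1 was far denser. Neat1 had 284 ± 7.54 CPM per kb in its shared part, and Malat1 had 2630 ± 185 over its 7 kb (SD, n = 2). In replicate 2, 42.1% of the positions in the shared part of Neat1 and 84.3% of those in Malat1 had more than 1 cDNA. Repeated hits are more frequent where the density is higher, so these shares carry the density with them. The 10 positions with the most cDNAs in replicate 2 itself, ranked without replicate 1, held 2.44% of its Neat1 cDNAs and 2.15% of its Malat1 cDNAs. In replicate 1, ranked by itself, these shares were 3.02% and 3.27%, so neither RNA was dominated by a few nucleotides.

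The ratio of Neat1 to Malat1 was not the same in all libraries. In the other libraries against the replicates the log2 ratio was -0.97 for Neat1 and -0.21 for Malat1, and the log2 odds ratio of Neat1 against Malat1 was -0.76 (95% interval -0.85 to -0.66). This too rests on the replicate level by which Neat1 was chosen and is a description. Its Fisher's exact test belongs to the family of 6 tests but is not read as a result. It has the smallest p-value of the 6 and so lowers some adjusted values of the other tests, none of which passed. Neat1 had 6.91 cDNAs per 100 of Malat1 in the other libraries, against 11.1 in replicate 1 and 11.9 in replicate 2. Between replicate 1 and replicate 2 the log2 odds ratio was -0.09 (-0.18 to -0.01), which did not pass after adjustment (p = 0.0319, adjusted p = 0.0956, two-sided Fisher's exact test). Malat1 was higher in replicate 1, with a log2 ratio of 0.14 (0.12 to 0.17), and the interval for Neat1, 0.05 (-0.03 to 0.13), included 0.

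**Figure D5:**
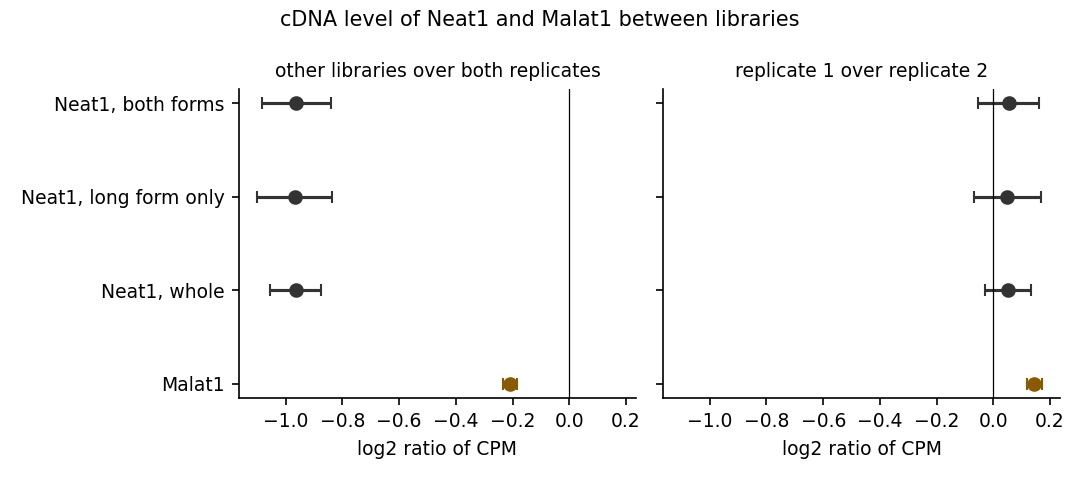
log2 ratio of CPM for the shared part, the long-form part and the whole of Neat1 and for Malat1, in the other libraries over both replicates (left) and in replicate 1 over replicate 2 (right), with exact 95% intervals. On the left the 3 Neat1 values lie between -0.96 and -0.97 and Malat1 at -0.21, and on the right all values lie between 0.05 and 0.14.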

How the data were processed

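The authors' deposited iCLIP tracks give 1 signed score for each nucleotide: its size is the number of cDNAs and its sign the strand, as the values and headers show. Per the file headers these are cDNA hits on mm9 with Ensembl 59, and per the submitters' processing notes Bowtie 0.10.1 was used. How duplicate cDNAs and reads with several matches were treated is not stated in the headers or labels, and both choices shape counts at dense positions and in repeats. The merged track sums 5 libraries, 3 with other identifiers. Both replicates carry the same library identifier, and the replicate field is 1 in both headers.

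Signed scores were split by strand, summed over Neat1 and divided by library totals (python 3.11.15, numpy 2.4.6, pandas 2.3.3, scipy 1.17.1). Intervals are 95% Poisson, Wilson, Clopper-Pearson or, for odds ratios, conditional exact ones; a count of 0 allows 3 cDNAs. Windows with at least 50 cDNAs across the genome were tested with exact binomial tests and Benjamini-Hochberg adjustment at 0.05. This procedure was checked on simulated counts that held counting error only. That check cannot show how it behaves where libraries differ by more than counting error. The dense run begins where 10 gaps in a row between positions are at most 50 nt.

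The gene, its borders and the comparisons were chosen with earlier results of these data known. Named items were the parts, the highest and lowest 1 kb bins, the 10 strongest positions (5 given in full), surroundings and Malat1. The step, the strongest windows, the 30 nt stretch and the split of the long-form part were added after the values were seen. Gene lists of paraspeckle proteins and cell types needed gene models of mm9 and were not run. No sequence of mm9 was used, so none is shown.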

Additional observations from a re-analysis of the deposited data

Results flagged for a closer look

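The merged track holds 1223 Neat1 cDNAs that are in neither replicate, a signal outside the 2 deposited replicate tracks. They come from 3 libraries summed together, so their spread is unknown, and a difference between them and the replicates has no replicate check.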

How the results depend on the processing

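The shared part was denser than the long-form part under every alternative run. The ratio, 5.08 as reported, was 3.54 with positions counted once, 5.24 and 4.70 with the border 500 nt toward the start or the end, 5.31 with lengths between covered positions, 5.18 over covered 100 nt bins, 4.85 without the 10 strongest positions, 4.28 with at most 2 cDNAs per position and 5.10 in the other libraries. Chosen after seeing the data, the border at the step gave 5.36 and only the 8750 nt of the long-form part next to the shared part gave 4.13. Leaving out a replicate gave 5.07 to 5.09 (ratio), 279 to 289 CPM per kb (shared part) and 55.0 to 56.9 (long-form part). The shared part had 190 CPM per kb with positions, 296.7 with totals lacking the 10 strongest windows, 271 without the 10 strongest positions and 144 in the other libraries. The long-form part had 53.4, 58.4 (totals lacking those windows) and 28.4 (other libraries).

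Between the replicates 13 windows differed, 20 with 1 kb windows and 23 with positions. Between the other libraries and the replicates 6083 differed, 1877 with 1 kb windows (fewer windows reach 50 cDNAs), 2709 without replicate 2 (7178 windows tested) and 5191 without replicate 1. The 3 Neat1 windows were lower in the other libraries under each of the 10 kb alternatives, with log2 ratios of -1.38 to -0.26. The smallest in size was that of the window from 5840001 with positions. These ratios rest on the replicate values by which Neat1 was chosen and are a description. Neat1 as a whole, at -0.97, had -0.54 with positions and -1.003 to -0.951 without a replicate. The log2 odds ratio of the shared part between replicates was -0.038 with the border toward the start and -0.0012 without the strongest positions (p = 0.634 and 1, Fisher's exact test). With positions it was 0.36 (p = 9.25e-05, Fisher's exact test) between the replicates and 0.56 (p = 2.22e-08, Fisher's exact test) for the other libraries. Whether library depth accounts for the differences seen with positions was not tested. No paired analysis was possible because the series' replicate tracks belong to 1 group. A test between the replicates allows none to be left out.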
